A study of Mus musculus with 14 samples.

Results

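Never-obese mice (CON-LFD, n = 3) were compared with mice that had diet-induced obesity (DIO-HFD, n = 4), which are 7 of the 14 mice of the series, at every site of the deposited table of DNA methylation. No site was picked by its level. The table lists 75761 sites, and the 65610 sites whose level varied across the 14 mice with an SD of at least 0.05 were tested. Both groups were female wild-type C57BL/6N mice (C57BL/6NCrl in the study's methods), 8 weeks old on arrival, given 1 week to acclimatize and then assigned to a diet. The diet of CON-LFD mice had 10% of calories from fat from start to end, and that of DIO-HFD mice 60%. Both groups went through a sham operation, in which the stomach was exposed and pressed but not cut, after 15 weeks on the diet. At 22 weeks after the assignment all mice received E0771 cells, a mouse mammary cancer line, in the fourth mammary fat pad, and 4 weeks later DNA was taken from the ninth, contralateral pad. Every mouse compared here therefore carried a mammary tumor at another site. The other groups of the series, DIO-LFD (n = 3) and DIO-VSG (n = 4), had been made obese and then lost weight, and entered here for the estimate of the spread and for sorting sites into classes.

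A mammary fat pad is mostly adipose tissue, with ducts of mammary epithelium, vessels and immune cells, and a whole pad gives an average over these cells. In mammals the cytosine of a CpG is usually methylated, most strongly in gene bodies, between genes and in repeated elements, whereas CpG islands, dense runs of CpG that often hold promoters, are mostly kept free of methylation. Genes that pattern the embryo, such as the Hox and T-box genes, carry large CpG islands that can take up methylation in adult tissue. Reduced-representation bisulfite sequencing (RRBS) reads short fragments that MspI cuts at CCGG, and a methylation level is the methylated share of the reads at a site. In DNA from bulk tissue, a changed share of a cell type and a changed level within a cell type cannot be told apart.

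Sequences of some of the regions and sites named below are shown for the plus strand of mm10 (GRCm38), with the CpG of each tested site in capitals. They were chosen because the groups differed most by p there, or because they show how the leading sites share sequence. A region is a run of at least 3 tested sites with gaps of at most 200 bp, and its sequence is given with 5 flanking bases.
Nfic, within the gene span and outside exons, chr10:81433722-81433778: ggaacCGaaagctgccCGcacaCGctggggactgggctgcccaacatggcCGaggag
Dnah17, intron, chr11:118071375-118071480: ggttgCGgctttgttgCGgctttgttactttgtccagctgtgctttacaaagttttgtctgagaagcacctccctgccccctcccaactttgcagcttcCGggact
Caskin2, intron, chr11:115809554-115809800: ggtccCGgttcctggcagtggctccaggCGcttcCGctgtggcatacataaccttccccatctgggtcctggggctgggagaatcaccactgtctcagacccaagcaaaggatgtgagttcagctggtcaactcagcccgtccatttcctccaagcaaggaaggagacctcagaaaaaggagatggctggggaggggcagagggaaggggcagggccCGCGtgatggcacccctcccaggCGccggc
Slc8a1, site within the gene span and outside exons, chr17:81684308-81684349: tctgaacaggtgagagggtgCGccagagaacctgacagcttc
Gm25485, region between genes, chr4:50380736-50380832: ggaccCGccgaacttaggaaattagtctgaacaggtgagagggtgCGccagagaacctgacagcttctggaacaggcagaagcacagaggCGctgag
Zcchc14, promoter site, chr8:121653426-121653467: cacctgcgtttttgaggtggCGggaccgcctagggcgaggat
The 42 bases around the Slc8a1 site occur unbroken in the Gm25485 region, on another chromosome.

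A single obese mouse stood apart from the rest of its group. Over the tested sites, the mean level was 64.3%, 64.1% and 60.6% in the CON-LFD mice, and 66.2%, 57.2%, 57.6% and 57.6% in DIO-HFD replicates 1 to 4. DIO-HFD replicate 1 was thus above every CON-LFD mouse, and the other 3 obese mice were below every CON-LFD mouse. Read counts do not come with the levels, the depth of each mouse is therefore unknown, and no interval is given for a single level. The main results below are given with all 7 mice and again without DIO-HFD replicate 1, and some are given in only 1 of these settings. In the main fit with all 7 mice no site, gene or region passed its threshold. Every named gene that is called below was therefore called without that mouse. Its levels in these same data set it apart, so these calls depend on a choice made with the values known. Leaving it out lowered the SD of the mean level between obese mice from 4.38 to 0.235 percentage points. Values set without that mouse rest on 3 mice against 3, for which the smallest two-sided exact p is 0.1, whereas 3 against 4 can reach 0.0571.

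The sign of the difference was not the same in every class of methylation level, and low classes were not tested against high ones. Sites were sorted by their mean level in the 7 DIO-LFD and DIO-VSG mice, not in the mice compared. The SD filter used all 14 mice, so the mice compared did help to decide which sites entered a class. A site near an end of the scale in the other 7 mice could pass the filter through its level in the mice compared. At the 23506 sites between 70% and 90%, the mean level was 82.1%, 81.7% and 76.8% in CON-LFD mice and 84.3%, 71.7%, 71.3% and 72.4% in DIO-HFD mice. CON-LFD mice were higher by 5.26 percentage points there (exact permutation test, two-sided, p = 0.229) and 8.39 without DIO-HFD replicate 1 (exact p = 0.1). At the 1340 sites under 10% the order was turned, with 7.05%, 8.39% and 6.67% in CON-LFD mice and 8.07%, 8.87%, 13.3% and 8.76% in DIO-HFD mice. This is a difference of -2.37 percentage points (exact p = 0.114), or -2.93 without replicate 1 (exact p = 0.1). It was -1.20 without DIO-HFD replicate 3, the highest mouse of that class. The class from 10% to 30% (7768 sites) differed by -0.851 percentage points (exact p = 0.4), less than the SD of 1.32 between obese mice. Sites from 30% to 70% (23297 sites) were higher in CON-LFD mice by 3.15 percentage points (exact p = 0.343), and sites of 90% or more (9699 sites) by 3.24 (exact p = 0.229). Adjusted over the 5 classes by the Benjamini-Hochberg method, the exact p was 0.381 to 0.4 in each with all 7 mice, and 0.125 to 0.7 without replicate 1. Thus, in the classes under 10% and of 70% or more, the class means of lean mice lay nearer to the ends of the scale than those of obese replicates 2 to 4. The difference between the 70% to 90% and the 90% or more class, 2.02 percentage points, did not pass its own test (exact p = 0.514).

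**Figure D1:**
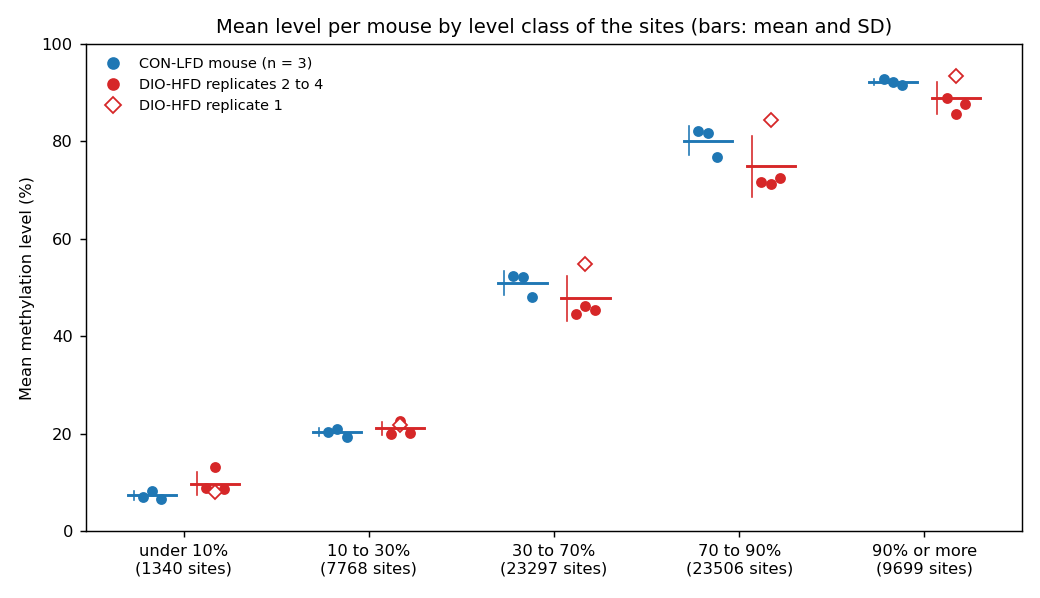
Mean methylation level (%, y axis) per mouse over the sites of each level class (x axis), with horizontal bars for the group mean and vertical bars for the SD; classes were set by the DIO-LFD and DIO-VSG mice. From 30% upward DIO-HFD replicate 1 (open diamond) lies above the CON-LFD mice, and DIO-HFD replicates 2 to 4 lie below them.

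At the high end the same order appeared in the levels of single mice, without sorting by other mice. Of the tested sites, 17.4%, 16.0% and 12.7% were at a level of 90% or more in the CON-LFD mice. The shares were 21.1% in DIO-HFD replicate 1 and 10.2%, 7.66% and 9.47% in replicates 2 to 4. Sites at an intermediate level, from 10% to below 90%, made up 79.6%, 81.7% and 83.9% of the sites in CON-LFD mice and 75.9%, 84.5%, 89.1% and 85.8% in DIO-HFD mice. DIO-HFD replicates 2 to 4 therefore held more sites of intermediate level than any lean mouse, and replicate 1 held fewer. CON-LFD replicate 3 was the lean mouse nearest to the obese ones in both shares. The low end did not show this order. Sites under 10% made up 3.02%, 2.36% and 3.39% in CON-LFD mice and 2.99%, 5.31%, 3.26% and 4.75% in DIO-HFD mice. DIO-HFD replicates 2 and 4 thus held more sites under 10% than any lean mouse.

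Gene bodies showed the widest gap and island promoters the narrowest. The position flags of the table were made exclusive in a fixed order, from promoters in islands to sites with no flag. At the 16922 intron sites, the mean level was 69.5%, 69.2% and 65.0% in CON-LFD mice and 71.7%, 60.6%, 60.8% and 61.1% in DIO-HFD mice, a difference of 4.34 percentage points (exact permutation p = 0.229). Exon sites (8052) differed by 4.31 percentage points and unflagged sites (17908) by 3.8013 (both exact p = 0.229). Without replicate 1 these differences were 7.07 for introns, 7.09 for exons and 5.80 for unflagged sites (exact p = 0.1 in each). Promoters outside islands (7482 sites) differed by 2.92 percentage points (exact p = 0.4) and islands outside promoters (6490 sites) by 1.97 (exact p = 0.514). The 866 upstream elements differed by 3.04 (exact p = 0.229). At the 7890 sites of promoters in islands, the levels were 42.5%, 43.4% and 40.3% in CON-LFD mice and 44.4%, 39.3%, 41.6% and 40.5% in DIO-HFD mice. The groups overlapped there, and the difference of 0.636 percentage points (exact p = 0.743) was below the SD of either group. Without CON-LFD replicate 2 it was -0.011, and without DIO-HFD replicate 2 it was -0.068.

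Islands as a whole were set against all sites outside islands within each mouse, which tests whether the difference itself depends on position. Island sites were lower than other sites by 25.3, 24.8 and 24.8 percentage points in the CON-LFD mice, and by 24.9, 23.1, 19.5 and 21.6 in the DIO-HFD mice. The contrast differed between groups by -2.68 percentage points (exact permutation p = 0.171), and by -3.57 without DIO-HFD replicate 1 (exact p = 0.1). Promoters against introns gave -2.59 (exact p = 0.229) and -3.78 without that mouse (exact p = 0.1). Adjusted over the 5 contrasts between classes, these p-values were 0.571. The gap between island promoters and introns was also seen within the level classes from 30% to 90%, but not in the other classes. At sites from 70% to 90%, the difference was 3.76 percentage points in island promoters, 5.70 in introns, 5.64 in exons and 4.66 at unflagged sites. At sites from 30% to 70%, it was 0.80 in island promoters and 4.46 in introns. Most tested sites of island promoters, 4974 of 7890, were in this middle class. At sites of 90% or more, the difference in island promoters was close to the 3.29 in introns. Under 30% it was negative in both, and more so in introns. It was -0.275 in island promoters and -1.37 in introns at 10% to 30%, and -2.01 and -3.07 under 10%.

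**Figure D2:**
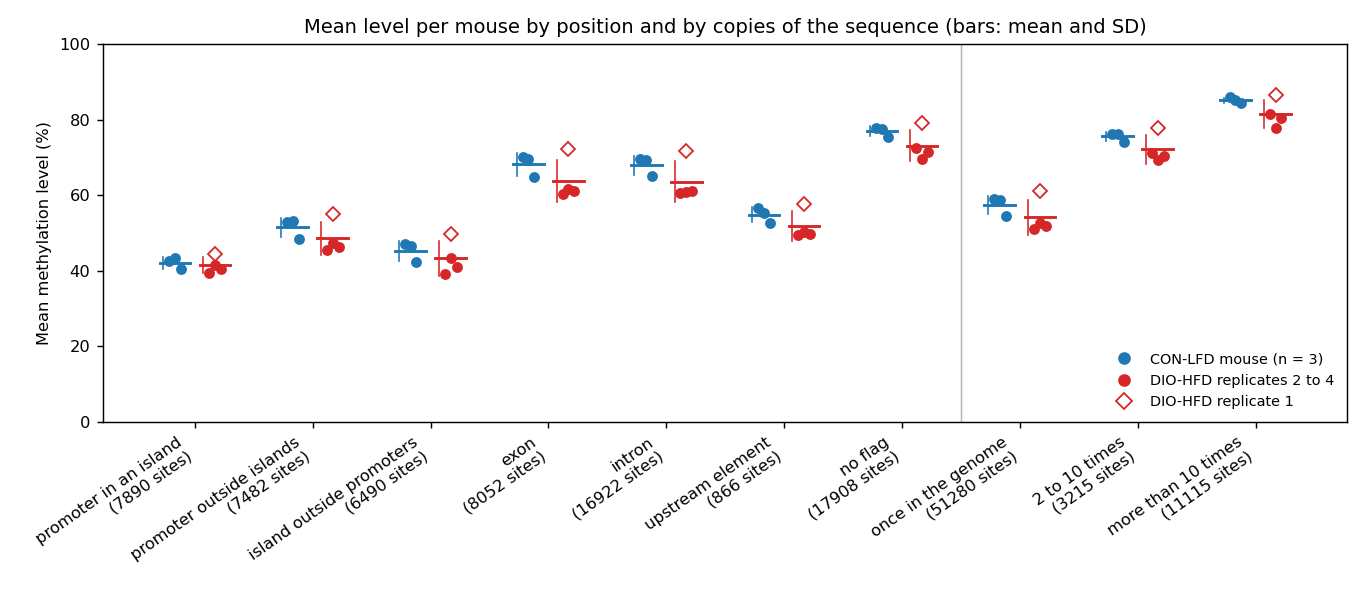
Mean methylation level (%, y axis) per mouse by position class (left of the line) and by how often the bases around a site occur in the genome (right of the line), with bars for the group mean and SD. DIO-HFD replicate 1 is the highest mouse of every class, and the gap between lean mice and DIO-HFD replicates 2 to 4 is 1.603 percentage points in island promoters and 7.07 in introns.

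The difference had the same sign on every chromosome. It ran from 2.06 percentage points on chromosome 16 to 4.23 on chromosome 4, and from 3.24 to 6.997 on those 2 chromosomes without DIO-HFD replicate 1. Chromosome X, of which females carry an active and a silenced copy, differed by 2.72 percentage points and the autosomes by 3.3607. That contrast was -0.641 (exact permutation p = 0.686). Sites inside CCGG, the site that MspI cuts, differed by 1.56 percentage points (19090 sites) and the other sites by 4.06 (46520 sites), with exact p of 0.343 and 0.229.

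Repeated sequence made up a large part of the highly methylated sites. The 31 bases centred on a site occurred once in the genome for 51280 tested sites and more than 10 times for 11115. At 5446 of the 9699 sites of 90% or more, the window occurred more than 10 times. These repeated sites were at 85.9%, 85.1% and 84.4% in CON-LFD mice and at 86.5%, 81.6%, 77.6% and 80.3% in DIO-HFD mice. They differed by 3.6095 percentage points and the sites that occur once by 3.27, with a difference between both of 0.342 (exact permutation p = 0.857), or -0.323 without replicate 1. Every CON-LFD mouse lay above every DIO-HFD mouse at 5.49% of the repeated sites and at 2.69% of the sites that occur once, beside 3.28% of all tested sites. Without replicate 1, limma called 3.04% of the repeated sites and 11.5% of the others higher in CON-LFD mice. The first pair of shares counts full separation with all 7 mice and the second counts limma calls with 6, so they are different measures. Reads from near-identical copies can be hard to place, and the part of this in the values was not tested.

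Site by site, no difference passed the threshold with all mice. Limma was fitted to M, the log2 ratio of methylated to unmethylated share, for the 4 groups together, and 0 of 65610 sites had a Benjamini-Hochberg adjusted p under 0.05. At an unadjusted p under 0.05 there were 5094 sites, 3939 higher in CON-LFD mice (6% of those tested) and 1155 lower (1.76%). With the levels of a gene averaged over its sites, 0 of 6093 genes passed, and 595 had an unadjusted p under 0.05 by limma, 539 higher (8.85%) and 56 lower (0.919%). Of 7141 regions 0 passed, with 579 higher (8.11%) and 145 lower (2.03%) at an unadjusted p under 0.05. The smallest adjusted p by limma was 0.110 for sites, 0.420 for genes and 0.452 for regions. When each mouse was centred on its own median M, which removes a shift common to all sites, the share of higher ones among those with an unadjusted p under 0.05 went from 77.3% to 55.0% for sites, from 90.6% to 55.6% for genes and from 79.97% to 56.03% for regions. The median difference of M over sites before centring was 0.29.

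Without DIO-HFD replicate 1, limma called 6346 sites higher in CON-LFD mice (9.67% of those tested) and 1506 lower (2.30%), each with an adjusted p under 0.05. It called 1790 genes higher (29.4%) and 152 lower (2.49%), and 2328 regions higher (32.6%) and 429 lower (6.01%). Without that mouse and with the medians centred, 287 genes were higher (4.71%) and 585 lower (9.6%), and the 287 and 152 of these that were also called without centring kept their direction. For regions the counts were 528 higher (7.39%) and 919 lower (12.9%), with 528 and 429 shared, and for sites 1921 (2.93%) and 2505 (3.82%). When limma was fitted without replicate 1 to the 2 groups alone, 10 sites, 1216 genes and 2085 regions passed. Regions called lower in CON-LFD mice held a site in a CpG island in 20.1% of cases and regions called higher in 10.1%, beside 18.3% of all regions tested. The median level of the lower ones in the DIO-LFD and DIO-VSG mice was 39.4%, and that of the higher ones was 74.0%. The median region lower in lean mice was thus of intermediate level, and the median region higher in lean mice was of high level.

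With all 7 mice, every lean mouse lay above every obese mouse at 3.28% of sites, 3.96% of genes and 2.55% of regions, and below every obese mouse at 1.4%, 0.771% and 0.812%. The sites with the smallest p lay in repeated sequence in both directions. At a site within the span of Slc8a1, a sodium and calcium exchanger, on chromosome 17 at 81684328, CON-LFD mice were at 97.4%, 100% and 100% and DIO-HFD mice at 89.5%, 80.95%, 78.9% and 76.9%. Every lean mouse was above every obese mouse, replicate 1 included, and M differed by 3.886 (SE 0.48, adjusted p = 0.110 by limma). The adjusted p was 0.0041 without replicate 1. The 31 bases around this site occur 5376 times in the genome. At a site on chromosome 2 at 98409571, whose nearest gene is Gm10801, each CON-LFD mouse was at 100% and the DIO-HFD mice were at 92.3%, 90%, 84% and 76.2% (adjusted p = 0.306 by limma), with 39 copies. The opposite order was seen on chromosome 7 at 59500288, near the snoRNA gene Gm25462 and within the long noncoding RNA Snhg14, where CON-LFD mice were at 85.7%, 84.6% and 88.9% and each DIO-HFD mouse at 100% (65 copies). A site near the miRNA gene Gm24369, on chromosome 14 at 109917815, was at 97.4%, 85.7% and 89.3% in CON-LFD mice and at 100% in each DIO-HFD mouse (884 copies). Both had an adjusted p of 0.306 by limma, and 0.0125 without replicate 1.

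Among sites whose window occurs once, a set chosen after the values were seen, the smallest p belonged to a site of Meis2, a homeobox transcription factor. It lies in a CpG island and in the first exon of a transcript of the gene, 2106 bp from the start that the table gives. CON-LFD mice were at 0%, 0% and 2.22%, and DIO-HFD mice at 14.4%, 12.4%, 15% and 11.3% (M lower by 3.46, SE 0.55, limma adjusted p = 0.371, 0.0133 without replicate 1). All 4 obese mice, replicate 1 included, were above the lean ones at this nearly unmethylated site. In the promoter of Zcchc14, a zinc finger gene, at -546 bp, the order was the reverse, with 27.9%, 24.6% and 16.3% in CON-LFD mice and 10.8%, 2.48%, 2.5% and 3.03% in DIO-HFD mice (limma adjusted p = 0.611, 0.0052 without replicate 1). A site 502 bp from the start of Cdc42bpg, a kinase gene, was at 66.7%, 65.7% and 73.3% in lean mice and listed at 100% in each obese mouse (adjusted p = 0.611, 0.0212 without replicate 1).

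Egr3 was the gene with the most sites among those named for low methylation in lean mice. It encodes a zinc finger transcription factor that growth signals induce within a short time. Over its 57 tested sites, of which 48 lie in islands, the level was 36.3%, 38.7% and 40.0% in CON-LFD mice and 40.1%, 47.3%, 53.4% and 53.1% in DIO-HFD mice. Every obese mouse was above every lean mouse, replicate 1 by the least. M was lower in CON-LFD mice by 0.58 (SE 0.17, adjusted p = 0.475 by limma), and by 0.74 without replicate 1 (SE 0.12, adjusted p = 0.0062). The mean was lower in lean mice at 50 of the 57 sites, and without replicate 1 limma called 30 sites lower and 1 higher. The region of 8 sites in its coding exon was at 22.9%, 25.8% and 24.3% in lean mice and at 28.9%, 34.99%, 43.8% and 38.4% in obese mice, again without overlap (adjusted p = 0.452 by limma, 0.0040 without replicate 1). Within the region the sites themselves ranged from 8.65% to 60.1% in CON-LFD replicate 1, and at each of the 8 sites the mean was lower in lean mice.

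Other regions followed the same division by level. A region of 4 sites within the span of Nfic, a transcription factor of the nuclear factor I family, and outside its exons was at 25.6%, 23.8% and 18.8% in CON-LFD mice and 29.6%, 32.3%, 39.8% and 33.2% in DIO-HFD mice (limma adjusted p = 0.452, 0.0078 without replicate 1). The groups did not overlap. In an intron of Dnah17, which encodes an axonemal dynein, 3 sites were at 22.2%, 45.2% and 60.9% in lean mice and at 59.0%, 79.7%, 73.5% and 81.8% in obese mice, with overlap and the widest spread among the lean mice of all named regions. Caskin2, a scaffold protein, held the region with the largest difference in percentage points of the 3 named regions higher in lean mice, at 80.04%, 81.3% and 71.4% against 71.9%, 44.5%, 35.5% and 43.3%. DIO-HFD replicate 1 lay within the lean range there and the other 3 obese mice were far below. M differed by 1.82 (SE 0.40, adjusted p = 0.452 by limma), and by 2.28 without replicate 1 (SE 0.23, adjusted p = 0.0018). The regions nearest to Olfr1301, an odorant receptor gene, and to the snoRNA gene Gm25485 were higher in lean mice without overlap and lie in repeated sequence, with windows of 41 to 4790 and 2186 to 5376 copies. Olfr1301 was at 80.1%, 85.7% and 84.4% against 73.6%, 70.4%, 61.9% and 67.7%, and Gm25485 at 92.9%, 94.4% and 89.8% against 87.8%, 83.1%, 81.6% and 81.6% (both adjusted p = 0.452 by limma). Without replicate 1 and with centred medians, the adjusted p was 0.0603 for Olfr1301 and 0.0363 for Gm25485.

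**Figure D3:**
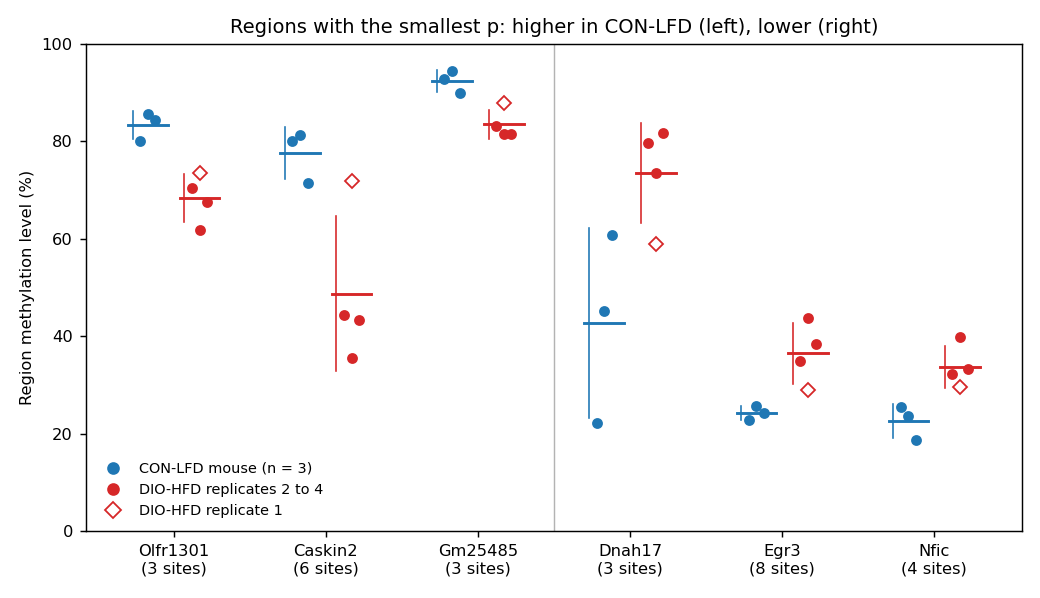
Methylation level (%, y axis) of the 6 regions with the smallest p, per mouse, with bars for the group mean and SD; each region is named by its nearest gene. Groups overlap at Caskin2, where DIO-HFD replicate 1 is at 71.9%, and at Dnah17, and do not overlap at the other 4.

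The genes with the smallest p higher in lean mice were Abcb5, a transporter gene, and the small RNA genes Gm44373, Gm23075 and Gm24527. Each was represented by 4 to 8 sites, some of them far away from the gene, and each had an adjusted p of 0.420 by limma. Abcb5 was at 89.5%, 95.7% and 89.7% in CON-LFD mice and 75.6%, 82.6%, 67.1% and 77.1% in DIO-HFD mice. No window of the 5 sites assigned to Gm23075 occurs once in the genome, and of the 4 sites of Abcb5 2 do. At all 4 genes every lean mouse was above every obese mouse. Lower in lean mice were the snoRNA gene Gm22890 (10 sites), Gltscr1 (4 sites), which encodes a chromatin remodeling subunit, and the miRNA gene Mir6919 (10 sites), each with an adjusted p of 0.475 by limma. Gm22890 was at 56.3%, 54.4% and 58.6% against 60.4%, 69.1%, 69.9% and 63.5%, and Gltscr1 at 40.1%, 36.6% and 37.6% against 48.1%, 42.9%, 46.4% and 47.3%. Without replicate 1 these 3 and Egr3 passed the threshold, with adjusted p from 0.0045 to 0.0304.

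Transcription factors that pattern the embryo had the smallest median difference over genes of the lists, with the short lists of cell type markers left out. Of 71 such genes listed, 49 entered the fit of genes, 26 higher and 23 lower in CON-LFD mice, and the median difference was 0.0821 percentage points, against 3.25 over all genes fitted. Without DIO-HFD replicate 1 the median was 0.197 against 5.15, and limma called 5 of them higher (10.2%, beside 29.4% of all genes) and 4 lower (8.16%, beside 2.49%). Hoxd3, a gene of the HoxD cluster, was at 16.7%, 18.1% and 20.4% in lean mice and 15.2%, 27.003%, 36.4% and 30.4% in obese mice over 34 sites. Its mean was lower in lean mice at each of the 34 sites, although replicate 1 fell below all lean mice. M was lower by 0.65 (SE 0.28, adjusted p = 0.475 by limma), and without replicate 1 by 0.97 (SE 0.15, adjusted p = 0.0062). Tbx3, a T-box factor needed for the mammary gland to form, was at 27.7%, 25.9% and 34.0% in lean mice and 22.7%, 48.6%, 51.2% and 48.1% in obese mice over 31 sites. Replicate 1 was again the lowest mouse, and the adjusted p was 0.475 with it and 0.0062 without it. Tbx2, its neighbor in the family, was at 26.4%, 27.1% and 33.4% against 24.5%, 37.2%, 41.7% and 39.1% over 38 sites (adjusted p = 0.483 by limma, 0.0162 without replicate 1). Hoxa9, at 26.2%, 21.4% and 28.1% against 19.7%, 32.2%, 41.2% and 35.2%, passed without replicate 1 as well (adjusted p = 0.0129). These 4 genes kept their direction and passed with centred medians too, without that mouse (adjusted p from 0.0053 to 0.0184).

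Without centring, the Hox genes did not share a direction. Hoxa5, which lies in the same cluster as Hoxa9, was at 68.6%, 69.9% and 51.4% in lean mice and 72.6%, 37.5%, 49.4% and 46.3% in obese mice over 22 sites, 17 of them in islands. It was called higher in lean mice without replicate 1 (adjusted p = 0.0280 by limma) and so were Hoxa4, Hoxb7, Pax7 and Tbx4. With centred medians none of these 5 passed, with adjusted p from 0.0969 to 0.930. In that setting limma called 0 of the 49 fitted genes of the list higher (beside 4.71% of all genes). It called 18 lower (36.7%, beside 9.6%). The lower calls lay mostly at sites of low level. Without replicate 1, limma called 58 of the 601 sites of the list lower (9.65%, beside 2.28% of the sites of all genes). It called 19 higher (3.16%, beside 9.66%). Of the 58 sites, 23 were sites of Tbx3 and 14 of Hoxd3. At the 102 island sites of the list that were at 10% to 30%, CON-LFD mice were at 17.5%, 17.9% and 17.4% and DIO-HFD mice at 16.3%, 21.4%, 27.3% and 23.8%. Island sites of other genes in that class were at 20.2%, 21.5% and 17.8% against 22.9%, 17.9%, 21.7% and 18.9%. The 127 sites of the list outside islands in that class showed the order of its island sites, at 17.7%, 18.6% and 21.2% against 16.8%, 23.5%, 28.5% and 23.8%. Replicate 1 was below the lean mice in both sets.

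**Figure D4:**
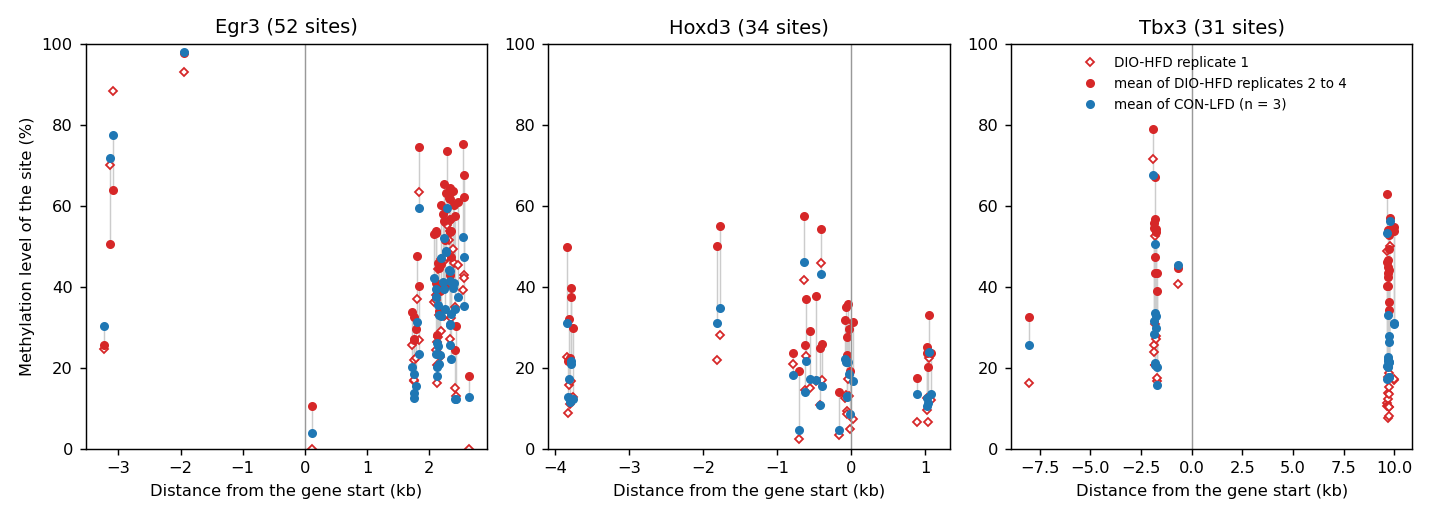
Methylation level (%, y axis) of each tested site of Egr3, Hoxd3 and Tbx3 against its distance from the gene start (kb, x axis), as the mean of the 3 CON-LFD mice, the mean of DIO-HFD replicates 2 to 4, and DIO-HFD replicate 1; 5 sites of Egr3 farther than 5000 bp are left out. Gray lines join the means of a site, which is lower in CON-LFD mice than in DIO-HFD replicates 2 to 4 at 48 of the 52 sites of Egr3, 34 of 34 of Hoxd3 and 30 of 31 of Tbx3.

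Extracellular matrix genes lay at the other end of the lists. Of 36 genes of collagens, laminins, matrix enzymes and their inhibitors, 17 were fitted, 15 higher in CON-LFD mice, with a median difference of 5.67 percentage points and of 9.26 without replicate 1. Limma called 11 of the 17 without replicate 1, all of them higher, beside 29.4% of all genes. Hspg2, which encodes the basement membrane proteoglycan perlecan, was at 68.7%, 67.4% and 57.4% in lean mice and 72.8%, 40.5%, 43.8% and 42.0% in obese mice over 74 sites. Replicate 1 was the highest mouse and the other 3 obese mice were below every lean mouse. The adjusted p by limma was 0.475, and 0.0084 without that mouse. Loxl1, which cross-links elastin, was at 57.9%, 57.9% and 50.6% against 60.97%, 40.1%, 43.98% and 39.9% (adjusted p = 0.475 and 0.0064 without replicate 1). Mmp14, a membrane-bound collagenase, was at 43.0%, 44.9% and 36.2% against 47.2%, 28.6%, 30.4% and 31.5% (adjusted p = 0.0081 without replicate 1). Col1a1 and Col6a1, chains of collagens I and VI, were among the other 8 called. With centred medians and without replicate 1, limma called 2 of the 17 higher, Hspg2 and Loxl1 (adjusted p = 0.0159 and 0.0460), and 2 lower, the matrix protease genes Mmp9 and Mmp17 (adjusted p = 0.0247 and 0.0299). Neither of the lower ones had passed without centring (adjusted p = 0.134 and 0.643).

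Genes of adipocytes and of insulin signaling moved near the background. Of 12 fitted genes of adipocyte and lipid metabolism, 11 were higher in lean mice, with a median of 3.20 percentage points, and 4 passed without replicate 1 (33.3%, beside 29.4% of all genes called higher), namely Mlxipl, Cfd, Ppard and Cebpb. Cfd, the adipocyte-secreted protease adipsin, was at 81.7%, 84.4% and 75.4% in lean mice and 82.7%, 65.8%, 68.7% and 68.6% in obese mice over 19 sites (adjusted p = 0.475 by limma, 0.0073 without replicate 1). Mlxipl, which encodes the glucose-sensing factor ChREBP, was at 74.6%, 71.8% and 72.2% against 74.3%, 57.3%, 59.1% and 59.5%. In the insulin, PI3K, mTOR and AMPK list (13 fitted, median 3.90 percentage points) limma called 5 genes higher (38.5%, beside 29.4% of all genes) and 1 lower (7.69%, beside 2.49%) without replicate 1. Slc2a4, the insulin-responsive glucose transporter, was at 86.2%, 80.8% and 78.5% against 87.1%, 64.6%, 66.7% and 74.9% (adjusted p = 0.0103 without replicate 1). Foxo3, a transcription factor that insulin signaling restrains, was the lower one, at 35.1%, 33.3% and 34.0% against 32.4%, 38.5%, 45.3% and 37.2% (adjusted p = 0.0428 without replicate 1).

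Regulators of thermogenic and adipocyte fate differed little as a list, with a median of 0.275 percentage points over 15 genes and of 1.72 without replicate 1. With centred medians and without that mouse, limma called 0 of the 15 higher (beside 4.71% of all genes) and 5 lower (33.3%, beside 9.6%). Irx5, a homeobox gene near Fto, was lower in lean mice, at 25.1%, 26.2% and 28.1% against 26.3%, 33.3%, 33.8% and 31.6% over 27 sites (adjusted p = 0.475 by limma, 0.0194 without replicate 1). Bmp7, a growth factor of brown fat, was at 73.9%, 71.96% and 69.8% against 72.995%, 66.01%, 64.5% and 65.1% (adjusted p = 0.0122 without replicate 1), and its difference in M vanished with centred medians (-0.003). In the TGF-beta and BMP list 3 of 21 genes, Acvrl1, Ltbp3 and Ski, were called higher without replicate 1 (14.3%), and in the Wnt list 7 of 26 (26.9%), both shares below the 29.4% of all genes. The 7 Wnt list genes included the ligands Wnt6, Wnt7b, Wnt10a and Wnt10b, and other fitted ligands, such as Wnt1 and Wnt4, were not called. The Wnt list had a median of 2.13 percentage points and the TGF-beta and BMP list of 0.926. None of the 7 Wnt genes passed with centred medians, where the smallest adjusted p was 0.0527.

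Chromatin enzymes, cytokine genes and imprinted genes were described in the same way. Hdac5, a histone deacetylase, was at 50.7%, 52.0% and 37.9% in lean mice and 63.7%, 23.5%, 25.0% and 26.6% in obese mice over 27 sites (adjusted p = 0.488 by limma, 0.0073 without replicate 1). Uhrf2, Hdac7 and Kmt2d were also called higher without that mouse. Of the 22 chromatin and DNA methylation enzyme genes fitted, 5 were called higher in this way (22.7%, beside 29.4% of all genes). The median over the 22 genes was 0.519 percentage points. With centred medians and without replicate 1, limma called 1 of them higher (4.545%, beside 4.71% of all genes) and 4 lower (18.2%, beside 9.6%). Of 8 cytokine and innate immune genes, Rela, Tnfrsf1a and Stat5a were called higher without replicate 1 (37.5%, beside 29.4% of all genes). Tnfrsf1a, a receptor for TNF, was at 77.2%, 76.8% and 66.7% against 82.98%, 51.8%, 58.9% and 55.3%. Of 15 imprinted genes 13 had a higher level in lean mice, as 4800 of all 6093 genes did, with a median of 2.72 percentage points. Cdh15, Meg3, Mcts2 and Ndn were called higher without replicate 1 (26.7%, beside 29.4% of all genes). Mcts2, a retrotransposed imprinted gene, was at 78.2%, 69.4% and 56.9% in lean mice and 80.01%, 44.3%, 47.0% and 45.4% in obese mice over 9 island promoter sites (adjusted p = 0.486 by limma, 0.0138 without replicate 1). Cdh15, a cadherin gene, did not overlap between groups even with replicate 1, at 54.9%, 54.0% and 54.7% against 52.2%, 47.5%, 43.2% and 46.6% (adjusted p = 0.475 by limma, 0.0169 without replicate 1).

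Genes that mark cell types went both ways. Among 10 lymphocyte and macrophage genes, Runx3 and Cd37 were called higher in lean mice without replicate 1, and Cd79b, Tcf7 and Ptpn6 were called lower. These are 20% and 30% of the list, beside 29.4% and 2.49% of all genes. With centred medians and without that mouse, 1 was called higher (10%, beside 4.71%) and 5 lower (50%, beside 9.6%). Runx3, a transcription factor of T cells, was at 58.7%, 58.1% and 45.6% against 65.0%, 35.2%, 34.9% and 39.1% over 73 sites (adjusted p = 0.483 by limma, 0.0111 without replicate 1). Ptpn6, the phosphatase SHP-1 of blood cells, was at 41.5%, 41.6% and 59.0% in lean mice and 34.3%, 70.8%, 69.0% and 66.0% in obese mice (adjusted p = 0.483 and 0.0103 without replicate 1). Tcf7, a factor of T cells, was at 42.1%, 43.6% and 48.7% against 39.2%, 55.2%, 56.8% and 56.6% over 13 sites. Krt8, a keratin of luminal epithelium, was at 51.7%, 52.9% and 69.8% against 52.4%, 80.1%, 78.8% and 66.9% (adjusted p = 0.0207 by limma without replicate 1). Without that mouse it was the 1 gene of 10 mammary epithelial genes called lower (10%, beside 2.49% of all genes). In this list 0 genes were called higher (beside 29.4%). At both Ptpn6 and Krt8, CON-LFD replicate 3 was the highest lean mouse and DIO-HFD replicate 1 the lowest obese mouse. Only 2 of 10 adipocyte, 3 of 10 epithelial and 3 of 13 lymphocyte and macrophage markers entered the fit of genes, so a share of cell types could not be read from them, and its part in the differences was not tested.

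Of the 2 genes of smallest p in each list, picked on this same contrast, 7 did not pass without replicate 1. Zap70, a kinase of T cell receptor signaling, was at 73.5%, 78.3% and 74.9% in lean mice and 73.3%, 69.95%, 67.8% and 69.6% in obese mice. Prdm9, a histone methyltransferase of meiosis, was at 44.2%, 45.7% and 45.8% against 43.9%, 36.98%, 38.5% and 40.4%. Inppl1, a lipid phosphatase gene of insulin signaling, was at 46.8%, 44.6% and 43.8% against 41.8%, 39.05%, 42.9% and 39.8%. At these 3 genes every lean mouse was above every obese mouse, and the adjusted p by limma was 0.475 with all mice and 0.0513, 0.0585 and 0.0946 without replicate 1. Ltbp1, Ctnnb1, Snrpn and Pgr overlapped between groups, with limma adjusted p of 0.0559, 0.115, 0.0545 and 0.110 without that mouse.

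**Figure D5:**
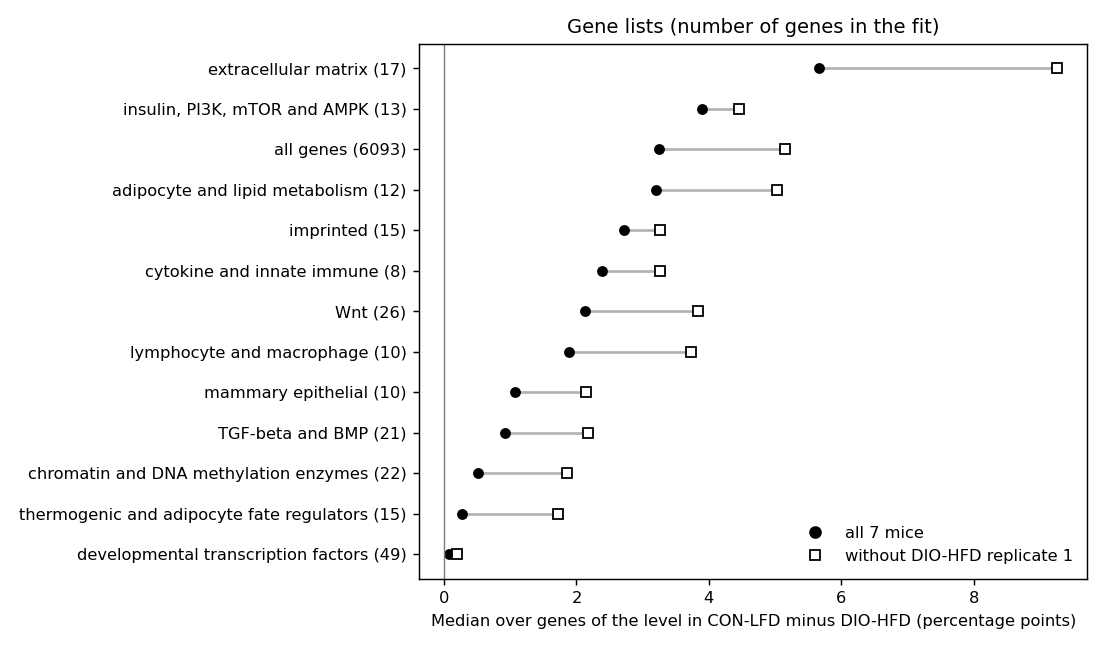
Median over the genes of a list of the level in CON-LFD minus DIO-HFD mice (percentage points, x axis), with all 7 mice (filled circles) and without DIO-HFD replicate 1 (open squares); the number of genes fitted is in brackets. Among the lists drawn, which leave out the short marker lists, extracellular matrix genes are highest, at 5.67 and 9.26, developmental transcription factors lowest, at 0.0821 and 0.197, and all genes fitted are at 3.25 and 5.15.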

How the data were processed

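DNA of 14 mice was measured by RRBS on MspI fragments. The authors mapped reads with Bismark to mm10, called methylation in methylKit, left out 2 mice whose sequencing was poor (1 each of CON-LFD and DIO-LFD), and deposited the methylation level as a fraction per site and mouse, not normalized further. Read counts are not in the table used here, so depth is unknown. The table holds 0 missing levels, and 12 sites are not at a CpG. Nearest gene and position flags are those of the table. The 562 sites without a usable gene symbol, some turned into dates, were tested as sites and left out of genes.

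Levels b became M = log2((b + 0.01)/(1 − b + 0.01)). Sites with an SD of at least 0.05, genes (mean over at least 3 tested sites) and regions (at least 3 sites, gaps up to 200 bp) were fitted with limma 3.58.1 in R 4.3.3, 4 groups in 1 model, contrast CON-LFD minus DIO-HFD, with the Benjamini-Hochberg adjustment over all features and a threshold of 0.05. The fit was tested on simulated data. Class means per mouse were compared by two-sided exact permutation tests (SciPy 1.17.1, Python 3.11.15), which double the smaller tail. Copies were counted as exact matches of 31 bases on both strands of GRCm38. Sequences are from RefSeq GRCm38.p6 and annotation from GENCODE. Mice were grouped by their sample labels. Named by rule were the 2 sites, 4 genes and 3 regions with the smallest p in each direction and the 2 genes of smallest p per list, other list genes being described where they passed without DIO-HFD replicate 1. The comparison, gene lists and alternatives were chosen with earlier results of these data known. The classes by copies, and the features of single-copy windows, were added after the data were seen. Alternatives covered the offset, levels in place of M, eBayes settings, centring, filters, region and gene definitions, the replicate block and leaving out each mouse.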

Additional observations from a re-analysis of the deposited data

Results flagged for a closer look

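For the 4 DIO-HFD mice, the distance of the outermost value to the next one, as a share of the whole range, was set against Dixon's critical value. Of 65 groups tested, over 25 class means and contrasts and 40 named features, 17 passed it, where 3.25 would pass by chance. The class means share their sites and are not independent of each other.

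DIO-HFD replicate 1 was the mouse apart in the mean over all tested sites (gap 0.953 of the range), at sites from 30% to 70% (0.836) and from 70% to 90% (0.911). The same mouse stood apart in exons (0.885), introns (0.958) and upstream elements (0.908), at sites within CCGG (0.974) and outside CCGG (0.948), on autosomes (0.951) and chromosome X (0.859), and at sites whose window occurs once (0.853). It was the highest obese mouse in each of these. Over the sites within CCGG it was at 67.4%, with the other 3 between 62.6% and 62.7%.

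Among named genes, replicate 1 was apart at Wnt7b (0.963), where it was at 69.2% and the others were at 56.2%, 56.6% and 56.2%, at Acvrl1 (0.90) and at Mlxipl (0.872), each time as the highest mouse. At Tbx3 (0.894) and Mir6919 (0.834) it was the lowest. Its distance from the other obese mice thus went both ways, with the order of the CON-LFD mice. At sites under 10%, DIO-HFD replicate 3 was the mouse apart (0.845), at 13.3%, and replicate 1 was the lowest obese mouse, at 8.07%. What sets replicate 1 apart was not tested.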

How the results depend on the processing

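Depth is unknown, 3 or 4 mice per group limit every exact p, and DIO-HFD replicate 1 decides the counts. Without it 7852 sites, 1942 genes and 2757 regions passed, where 0 passed with it. With 1 mouse left out in turn, the counts ranged from 0 to 7852 sites, 0 to 1942 genes and 0 to 2757 regions. Leaving out any other mouse gave at most 6 sites (when CON-LFD replicate 1 or else DIO-LFD replicate 2 was left out), 1 gene (without CON-LFD replicate 3) and 0 regions.

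At an unadjusted p under 0.05, leaving out 1 mouse gave 2612 to 20299 sites, 284 to 2790 genes and 292 to 3562 regions. Fitting only the 2 groups gave 2726 sites, 293 genes and 246 regions, and 2 sites then passed the adjusted threshold. An SD of at least 0.1 gave 1146, 134 and 162. Genes with at least 1 tested site gave 960, sites within 5000 bp of the start 239 genes, single-copy windows 319 genes, and regions of at least 5 sites 303. The cause of each shift was not tested.

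Without replicate 1, centring gave 4426 sites, 872 genes and 1447 regions past the adjusted threshold (14676, 1977 and 2501 unadjusted), the 2 groups alone 10, 1216 and 2085 (18645, 2562 and 3319), and single-copy windows 10145, 1715 and 2708 (18868, 2153 and 3111).

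Of the class means, 2 turned sign. The 10% to 30% class became 0.101 percentage points with the median of a mouse and 0.0129 with classes set by all 14 mice. Island promoters became -0.712 with the median, and ranged from -0.068 to 1.603 with 1 mouse left out. The contrast of repeated against single-copy windows was -0.043 with an SD of at least 0.1, and ranged from -0.746 to 1.40. The other class means and contrasts kept their sign, and no exact p was under 0.05.

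Of the 42 named features, 35 passed without replicate 1 and 7 did not. They were picked for a small p on the same contrast, so this count is not a test of them. In that setting limma called 9.67% of all sites higher in CON-LFD mice and 2.3% lower. For genes the shares were 29.4% and 2.49%, and for regions 32.6% and 6.01%. With all mice and centred medians, Inppl1 turned sign (-0.020). With centred medians and without replicate 1, so did Ltbp1 (-0.095), Ctnnb1 (-0.014), Prdm9 (-0.058), Bmp7 (-0.003) and again Inppl1 (-0.184). The deviations of same-numbered CON-LFD and DIO-HFD mice correlated weakly (r = 0.147, -0.080 and 0.113). Mice of these groups with different numbers gave r from -0.288 to 0.191. Whether the numbers pair mice was not tested. With the replicate block 0 sites, genes and regions passed, and 4914, 581 and 732 had an unadjusted p under 0.05.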
